A study of Mus musculus with 2 samples.

Results

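SMAD proteins carry the signal of TGF-β family receptors into the nucleus, and 10 genes of this system were followed in mouse CD4 T cells under conditions for pathogenic and for non-pathogenic Th17 differentiation. They were taken by name from the deposited count table: the receptor SMAD genes Smad1, Smad2, Smad3 and Smad5, the common SMAD gene Smad4, the inhibitory SMAD gene Smad7, the corepressor genes Ski and Skil, and Ldlrad4 and Spsb1, which encode inhibitors that act at the receptors. All 10 were found among 22036 named genes, and all 10 passed the filter of 1 CPM (a count scaled to a library of 1000000 counts), averaged over both libraries, that 10597 genes passed. The pathogenic condition (pTh17) was 20 ng/mL IL-6 with 20 ng/mL activin A. The non-pathogenic condition (npTh17) was 20 ng/mL IL-6 with 2 ng/mL TGFβ1, labelled as recombinant human protein. Both came from wild-type mice, of a strain and age that the labels do not state, and both held CD4+ T cells of spleen and lymph node. The wells were coated with 10 μg/mL anti-CD3 plus 5 μg/mL anti-CD28, with antibodies to IFNγ and IL-4 in the medium that the labels give at 10 mg/mL each, and cells were lysed after 24 h. The labels do not describe a culture without a TGF-β family ligand, so each value sets activin A against TGFβ1 and neither against no ligand. Each culture gave 1 library, and the labels do not say how many mice it came from.

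Ligands of the TGF-β and activin type bind pairs of receptor kinases that phosphorylate SMAD2 and SMAD3, while BMP ligands act through SMAD1 and SMAD5. A phosphorylated receptor SMAD binds SMAD4 and enters the nucleus, where SKI and SKIL, also called SnoN, bind the complex and hold its target genes silent until the signal leads to their degradation. Smad7 and Skil are themselves known SMAD target genes, so their products form feedback loops. In mouse CD4 T cells, TGF-β with IL-6 promotes Th17 differentiation, and SKI acting with SMAD4 has been described as a restraint on it.

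The libraries held 30877656 counts on named genes for pTh17 and 33470161 for npTh17, so 1 count was worth 0.0323 CPM in pTh17 and 0.0299 CPM in npTh17. The T cell label fitted the marker genes: the 8 genes of a CD4 T cell list summed to 2717 CPM in pTh17 and 2724 CPM in npTh17. Lists for CD8 T, B, myeloid, dendritic, natural killer and stromal cells each summed to 8.86 CPM or less in either library. No count in either library was found for 2 of 5 B cell, 3 of 7 myeloid, 2 of 4 dendritic, 2 of 4 natural killer and 3 of 5 stromal genes, Csf1r, Ncr1 and Col1a1 among them. The myeloid list summed to 4.24 CPM in pTh17 and 4.58 CPM in npTh17, mostly Cd68, and the stromal list to 8.18 CPM in pTh17 and 8.86 CPM in npTh17, mostly Pecam1. Some scarce markers were found in 1 library only, such as Itgam with 0 counts in pTh17 and 24 in npTh17, Itgax with 0 in pTh17 and 20 in npTh17, and Fcer1g with 14 in pTh17 and 0 in npTh17. Their part in the results was not tested. With 1 library per condition there is no replicate check, no p-value was computed, and each difference is one between these libraries. The ranges after ratios are 95% counting intervals, which cover counting error only. In such bulk RNA, fewer cells of a type and less RNA per cell cannot be told apart.

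Spsb1 and Ldlrad4 were lower in pTh17 by more than 2-fold. The nuclear corepressor genes and Smad7 were 1.25-fold to 1.30-fold lower. The product of Smad7 also acts at receptors, so a difference past 2-fold was not shared by all members that do. The receptor SMADs and Smad4 were nearer to equal by counts. By FPKM Smad2 was not, at a log2 ratio of −0.45, further from 0 than Ski, Skil and Smad7. Of the 10 members, 2 were at least 2-fold lower in pTh17, against 1.95% of all genes kept. None was at least 2-fold higher, against 2.25% of all genes kept. The interval lay below a ratio of 1 for 7 members, against 34.0% of genes kept. It lay above 1 for 1 member, Smad5, against 33.0% of genes kept, and it held 1 for Smad1 and Smad3. At these depths an interval that leaves out 1 is thus common, and the sizes of the ratios carry more than the count of such intervals. The median log2 ratio of pTh17 over npTh17 was −0.25 over the 10 members and −0.0045 over all genes kept.

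**Figure D1:**
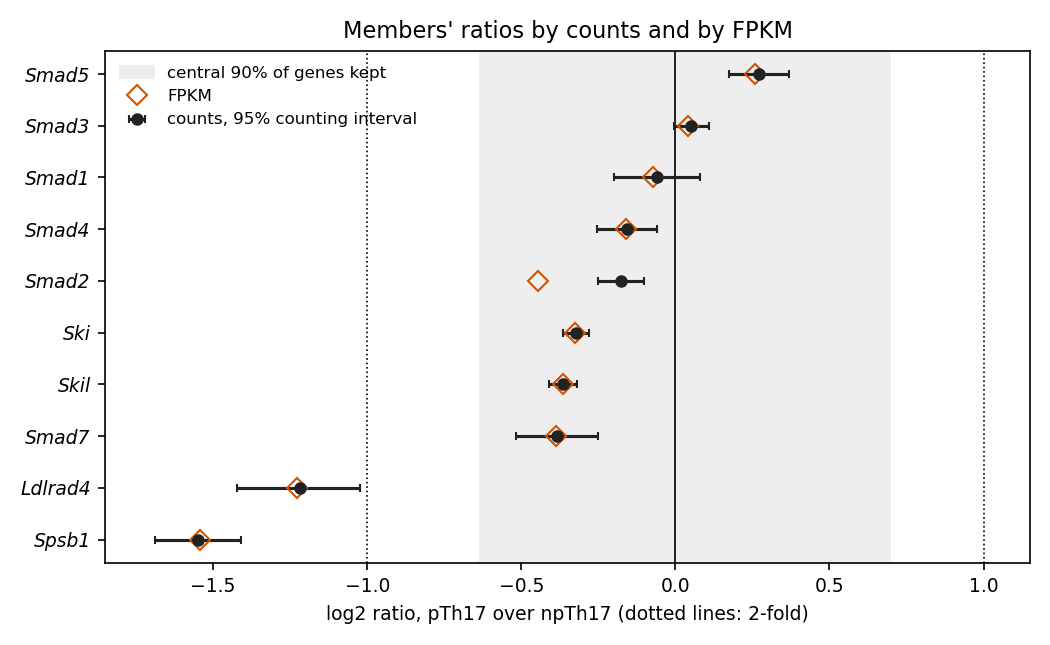
The log2 ratio of pTh17 over npTh17 for each member (horizontal axis) by counts, with 95% counting intervals, and by FPKM, over a band that holds the central 90% of genes kept. Spsb1 and Ldlrad4 lie left of the band and of the 2-fold line, and Smad2 is the member whose FPKM ratio (−0.45) stands away from its count ratio (−0.18).

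The 250 bases before the annotated transcription start are shown for 3 members: Spsb1, which had the lowest ratio of the 10, Ski, the highest of them by FPKM (fragment counts scaled by transcript length and depth), and Smad3, whose interval held 1. They are RefSeq sequences on build GRCm38.p6, which is the assembly named mm10, written 5′ to 3′ along the gene. Capitals mark a match to a motif. The Spsb1 window is chr4:149955007-149955256, the Ski window chr4:155222536-155222785 and the Smad3 window chr9:63757995-63758244, all on the minus strand.
Spsb1: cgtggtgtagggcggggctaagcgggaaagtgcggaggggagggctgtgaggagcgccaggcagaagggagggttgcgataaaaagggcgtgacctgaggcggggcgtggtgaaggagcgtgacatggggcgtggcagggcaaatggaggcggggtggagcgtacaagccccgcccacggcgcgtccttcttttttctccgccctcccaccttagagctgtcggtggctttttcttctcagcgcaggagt
Ski: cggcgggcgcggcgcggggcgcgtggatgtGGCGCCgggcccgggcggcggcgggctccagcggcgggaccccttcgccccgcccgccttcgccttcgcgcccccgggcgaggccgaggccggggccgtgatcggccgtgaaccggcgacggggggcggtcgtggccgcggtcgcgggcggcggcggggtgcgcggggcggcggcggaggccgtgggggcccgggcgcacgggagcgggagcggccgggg
Smad3: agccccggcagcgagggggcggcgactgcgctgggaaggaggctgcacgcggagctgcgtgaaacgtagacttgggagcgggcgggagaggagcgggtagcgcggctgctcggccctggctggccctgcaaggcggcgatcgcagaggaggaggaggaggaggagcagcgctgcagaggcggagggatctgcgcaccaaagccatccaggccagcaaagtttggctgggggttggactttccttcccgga
Each window was searched on both strands for the SMAD box CAGAC, for the palindromic SMAD site GTCTAGAC, and for the GC-rich SMAD box GGCGCC. Over all 32851 windows of that length, 42.2% held the first, 0.167% the second and 9.59% the third. Ski held GGCGCC once, starting 220 bases before the start, in a window of 87.6% G and C, where the median over all windows was 52.4%. Neither the Spsb1 nor the Smad3 window held any of the motifs, which says only that these letters are not in these windows. Windows of 5 of the 10 members were searched. The remaining members were not searched, so whether their windows hold a motif is not known here. Besides the 3 members shown, Smad1 and Smad5 were searched, and the Smad1 window held none of the motifs. Among 3 windows of Smad5, 1 held GGCGCC, starting 19 bases before the start, and another held CAGAC, starting 21 bases before it. These are RefSeq starts, and both matches lie inside the GENCODE bounds of Smad5 given below. The Spsb1, Ski and Smad1 windows also reach into the GENCODE bounds of those genes.

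Smad3 and Smad2, which transduce TGF-β and activin signals, differed little by counts. Smad3 (ENSMUSG00000032402, chromosome 9, 63646767 to 63757994) had 4979 counts or 161 CPM in pTh17, against 5190 counts or 155 CPM in npTh17. Its log2 ratio of 0.05 (−0.0043 to 0.11) was within counting error, and the upper bound leaves at most a 1.08-fold excess in pTh17. Smad2 (ENSMUSG00000024563, chromosome 18, 76241580 to 76310963) had 2689 counts or 87.0 CPM in pTh17, against 3282 counts or 98.2 CPM in npTh17. It was lower in pTh17 at a log2 ratio of −0.18 (−0.25 to −0.10), and 27.5% of genes kept had a ratio as low or lower. The summed counts of the pair gave −0.03 (−0.08 to 0.01), which held equality within counting error. By FPKM the pair summed to 56.5 in pTh17 and 66.1 in npTh17, so that near-equality holds for counts only.

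FPKM gave another size for the Smad2 difference. Smad2 stood at 28.7 FPKM in pTh17 and 39.1 FPKM in npTh17, a log2 ratio of −0.45, which differs from the count ratio by −0.27. For the other 9 members the FPKM log2 ratio less the count log2 ratio lay between −0.014 and 0.0052. A count divided by its FPKM gives the transcript length that the authors' calculation used, up to a depth factor fixed here on 559 genes with a single annotated transcript. That length was 2657 bases for Smad2 in pTh17 and 2210 bases in npTh17, while its 7 annotated protein-coding transcripts run between 614 and 8089 bases. A shift at least as large in either direction was found at 1.63% of 8813 genes with at least 200 counts in each library. The cause of the Smad2 shift was not tested. The transcripts the other members were measured on had nearly the same length in both libraries, as for Ski at 5521 bases in each.

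**Figure D2:**
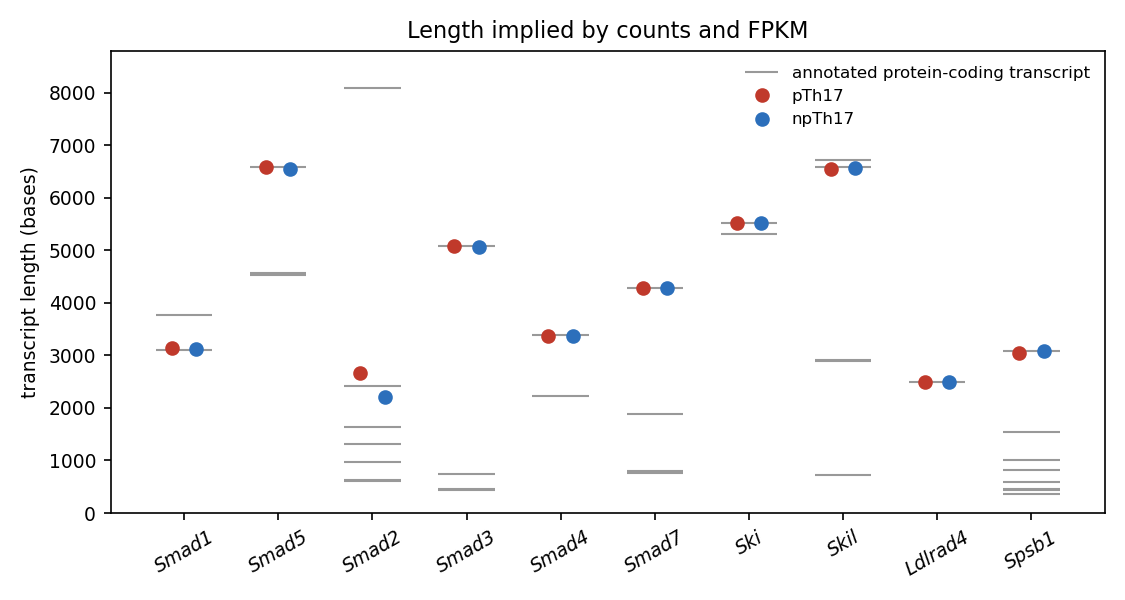
Transcript length in bases (vertical axis) that counts and FPKM imply for each member in pTh17 (left point) and npTh17 (right point), with grey bars at the lengths of annotated protein-coding transcripts. Only for Smad2, at 2657 and 2210 bases, do the points of a member stand clearly apart.

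Of the BMP-type receptor SMADs, Smad5 was higher in pTh17 and Smad1 was within counting error. Smad5 (ENSMUSG00000021540, chromosome 13, 56703010 to 56742377) had 1839 counts or 59.5 CPM in pTh17, against 1646 counts or 49.3 CPM in npTh17. It was 1.21-fold higher in pTh17 (1.13 to 1.29), and 20.0% of genes kept had a ratio as high or higher. Smad1 (ENSMUSG00000031681, chromosome 8, 79338395 to 79399518) had 794 counts or 25.7 CPM in pTh17, against 895 counts or 26.8 CPM in npTh17, a log2 ratio of −0.06 (−0.20 to 0.08) that was within counting error. The intervals of these paralogs did not overlap, but with counts halved, to allow for more than 1 count per fragment, they did, since that of Smad1 ended at 0.14 and that of Smad5 began at 0.13. No stretch of 50 bases in an annotated transcript of a member recurs in another member, and the longest run shared by any pair was 24 bases, in Smad1 and Smad3.

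By FPKM, which allows levels of different genes to be compared, Smad2 and Smad3 made up 78.9% of the summed receptor SMAD transcripts in pTh17 and 82.4% in npTh17. Smad2 alone took 40.1% in pTh17 and 48.7% in npTh17, and Smad5 took 11.1% in pTh17 and 8.25% in npTh17. The FPKM of Smad5 was 1.10 times that of Smad1 in pTh17 and 0.878 times in npTh17, but in pTh17 the counting intervals of the pair overlapped. With 1 length per gene in both libraries the summed share of Smad2 and Smad3 was 79.6% in pTh17 and 81.6% in npTh17, and that of Smad2 alone was 42.1% in pTh17 and 46.3% in npTh17, both smaller gaps.

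**Figure D3:**
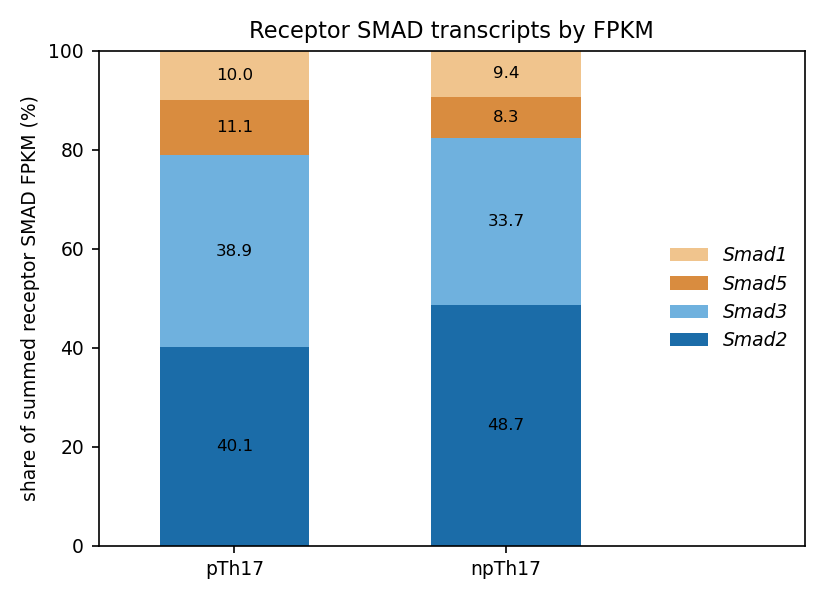
Share of each receptor SMAD gene in their summed FPKM (vertical axis, percent) in pTh17 (left bar) and npTh17 (right bar). Smad2 takes 40.1% in pTh17 and 48.7% in npTh17, and Smad5 11.1% in pTh17 and 8.25% in npTh17.

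Smad4, the shared partner of both arms (ENSMUSG00000024515, chromosome 18, 73639009 to 73703780), had 1563 counts or 50.5 CPM in pTh17, against 1885 counts or 56.4 CPM in npTh17. Its log2 ratio was −0.16 (−0.26 to −0.06), close to that of Smad2 by counts. Smad7 binds active receptors, blocks them and brings in ubiquitin ligases (ENSMUSG00000025880, chromosome 18, 75367529 to 75395935). It had 805 counts or 26.0 CPM in pTh17, against 1135 counts or 34.0 CPM in npTh17, a log2 ratio of −0.38 (−0.52 to −0.25). A ratio as low or lower was found at 11.9% of genes kept, so this difference was not among the large ones in these libraries. The remaining SMAD genes, which are not members, were scarcely detected. The inhibitory SMAD gene Smad6 had 5 counts in pTh17 and 25 counts in npTh17, a log2 ratio of −2.01 (−3.95 to −0.80), and Smad9 had none in either, which allows up to 0.0970 CPM in pTh17 and 0.0898 CPM in npTh17.

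The corepressor genes had nearly the same ratio. Ski (ENSMUSG00000029050, chromosome 4, 155154075 to 155222592) had 7564 counts or 245 CPM in pTh17, against 10219 counts or 306 CPM in npTh17. Its log2 ratio was −0.32 (−0.37 to −0.28), or 1.25-fold lower in pTh17. Skil (ENSMUSG00000027660, chromosome 3, 31095058 to 31122577) had 6965 counts or 225 CPM in pTh17, against 9689 counts or 290 CPM in npTh17. Its log2 ratio was −0.36 (−0.41 to −0.32), or 1.29-fold lower in pTh17, and the intervals of Ski and Skil overlapped. Ratios as low or lower were found at 15.2% of genes kept for Ski and 12.7% for Skil. Set against their SMAD partners by FPKM, Ski plus Skil stood at 1.22 times Smad2 plus Smad3 in pTh17 and 1.32 times in npTh17. With 1 length per gene in both libraries the values were 1.16 in pTh17 and 1.40 in npTh17, a wider gap. These are transcript levels, and the proteins, whose degradation is part of the pathway, were not measured.

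**Figure D4:**
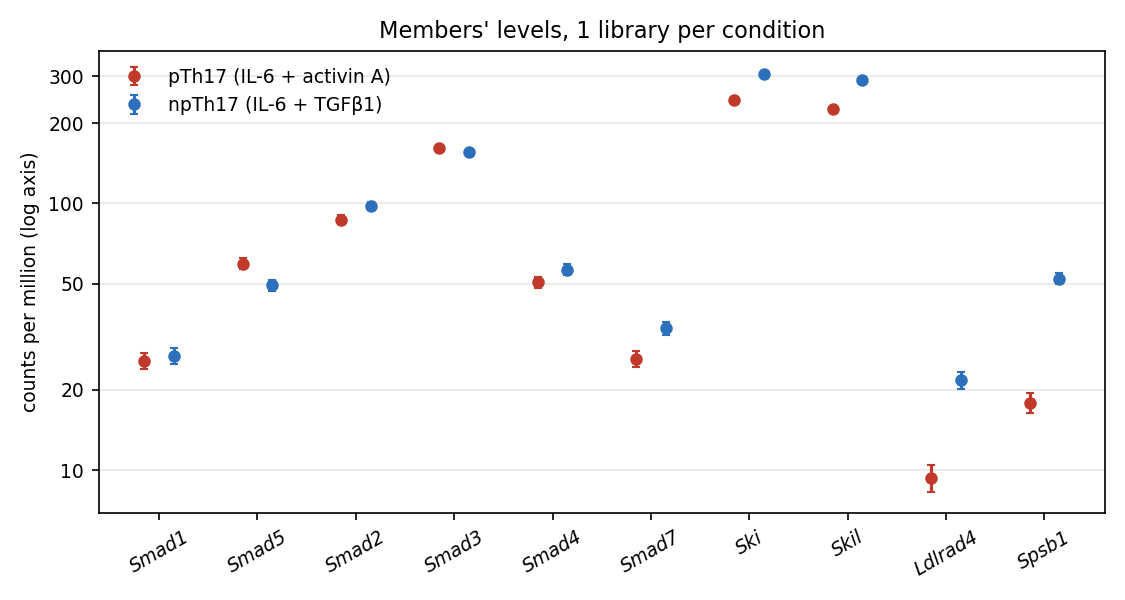
Level of each member in CPM (vertical log axis) in pTh17 (left point) and npTh17 (right point) with exact 95% Poisson intervals. Spsb1, at 17.8 CPM in pTh17 and 52.2 CPM in npTh17, and Ldlrad4, at 9.31 CPM in pTh17 and 21.7 CPM in npTh17, show the widest gaps.

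Ldlrad4 and Spsb1 act at the membrane. LDLRAD4 is known to keep SMAD2 and SMAD3 from being recruited to the receptor, and SPSB1, a SOCS-box adaptor of ubiquitin ligases, has been described as directing the type II TGF-β receptor to degradation. Ldlrad4 (ENSMUSG00000024544, chromosome 18, 67933257 to 68268630) had 288 counts in pTh17 and 726 counts in npTh17. It was 2.33-fold lower in pTh17 (2.03 to 2.68) and ranked 126 from the lowest ratio of the 10597 genes kept. Spsb1 (ENSMUSG00000039911, chromosome 4, 149896283 to 149955043) had 551 counts in pTh17 and 1743 counts in npTh17. It was 2.92-fold lower in pTh17 (2.66 to 3.23) and ranked 70. Their intervals overlapped slightly, and neither overlapped that of any other member.

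Exons of Ldlrad4, Spsb1 and Smad5 share ground with other annotated genes, and the labels describe no strand-marking step. Of the exon bases annotated for Ldlrad4, 2798 lie opposite exons of Fam210a, which had 2326 counts in pTh17 and 1989 counts in npTh17 and so a ratio on the other side of 1, at a log2 value of 0.34. The protein-coding Ldlrad4 transcript of 2495 bases shares none of them, and its length is the one the FPKM values imply, at 2494 bases in pTh17 and 2493 bases in npTh17. Spsb1 shares 103 bases of its 3092-base transcript with exons of the antisense RNA gene Gm13070. Smad5 shares 100 exon bases with Gm27301, annotated as a miscellaneous RNA gene, on the same strand, none of them in its 6584-base transcript.

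Ordered by FPKM, Ski led in both libraries, with 38.8 FPKM in pTh17 and 48.7 FPKM in npTh17. In pTh17 it was followed by Skil, Smad2, Smad3, Smad4, Smad5, Smad1, Smad7, Spsb1 and Ldlrad4. Within counting error, Skil was not set apart from Smad2, Smad2 from Smad3, Smad5 from Smad1, or Smad7 from Spsb1. In npTh17 the order after Ski was Smad2, Skil, Smad3, Spsb1, Smad4, Ldlrad4, Smad1, Smad7 and Smad5. There the neighbours that were not set apart were Smad2 and Skil, Spsb1 and Smad4, and each neighbouring pair from Ldlrad4 down to Smad5. Spsb1 thus stood at place 9, with 5.12 FPKM, in pTh17 and at place 5, with 14.9 FPKM, in npTh17, and Ldlrad4 at place 10 in pTh17 and place 7 in npTh17.

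Genes that act on SMADs elsewhere in the pathway were read from lists chosen with earlier results of these data known. The receptor genes had the lowest median among them, at −0.70 over the 10 of 13 genes kept. Of these, 9 were below a ratio of 1, against 50.6% of all genes kept. At least 2-fold lower in pTh17 were 3 (2 by FPKM with a pseudocount of 0.1, and 4 with no filter), against 1.95% of all genes kept. The 3 were Eng, which encodes the co-receptor endoglin, at −2.01 (−2.41 to −1.65), the type I receptor gene Acvr1 at −1.09 (−1.44 to −0.76), and Bmpr2, a BMP type II receptor gene picked after its value was seen, at −1.01 (−1.12 to −0.91). Among the receptor genes kept, only Tgfbr3, the betaglycan gene, was above 1, at 0.28 (0.17 to 0.40). The other receptor genes kept, named after their values were seen, were Acvr2a at −0.96, Tgfbr1 at −0.80, Tgfbr2 at −0.61, Acvrl1 at −0.35, Acvr1b at −0.20 and Bmpr1a at −0.15. Among these, only the interval of Bmpr1a held 1. Receptor genes under the filter, also named after their values were seen, went both ways. Acvr2b had 39 counts in pTh17 and 22 in npTh17, a log2 ratio of 0.91 (0.15 to 1.76). Acvr1c had 11 counts in pTh17 and 26 in npTh17, a log2 ratio of −1.06 (−2.29 to −0.06). Bmpr1b had none in either. The part of the receptor levels in the members' values was not tested. The anchors and adaptors that hold SMADs at receptors had a median of −0.13 over 9 of 10 genes kept and none past 2-fold. Of those with an interval leaving out 1, Appl1, an endosomal adaptor gene, stood at −0.24 (−0.31 to −0.17) and Fkbp1a, whose product FKBP12 holds type I receptors inactive, at 0.13 (0.10 to 0.17).

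The 13 ubiquitin ligase genes of SMADs and SKI proteins were all kept, with none past 2-fold and a median of −0.21. Of their intervals, 9 lay below 1 and 2 above 1, against 34.0% and 33.0% over all genes kept. Smurf1, whose product is brought to receptors by SMAD7, had 37.8 CPM in pTh17 and 54.3 CPM in npTh17, a log2 ratio of −0.52 (−0.63 to −0.41). Rnf111, which encodes Arkadia, the ligase of SMAD7, SKI and SKIL, had 41.6 CPM in pTh17 and 55.9 CPM in npTh17, a log2 ratio of −0.43 (−0.53 to −0.32). On the other side of 1 were Stub1, a chaperone-bound ligase gene, at 0.41 (0.33 to 0.49) and Rlim at 0.12 (0.06 to 0.17). The 15 deubiquitinase and phosphatase genes had a median of −0.05, with none past 2-fold. Among them Ppp1r15a, known as GADD34, stood at 0.61 (0.47 to 0.76) and Mtmr4 at 0.47 (0.36 to 0.57), while Ppp2r2a, a subunit gene of protein phosphatase 2A, stood at −0.19 (−0.25 to −0.14).

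In the nucleus, 9 of 11 genes on the transport list were kept, with a median of 0.12. At least 2-fold higher in pTh17 were 2 of them, against 2.25% of all genes kept. Xpo4, the exportin gene of SMAD3, stood at 1.66 (1.58 to 1.73) by counts but at 0.33 by FPKM. Tmem132a had 83 counts in pTh17 and 41 counts in npTh17, a log2 ratio of 1.11 (0.57 to 1.71). A part of Tmem132a in SMAD transport was not checked here, so its value is that of a gene on the list only. The import receptor gene Ipo8 stood at −0.21 (−0.28 to −0.13) and the nucleoporin gene Nup214 at −0.13 (−0.19 to −0.07). The DNA-binding partners of SMADs had a median of 0.04 over 16 of 19 genes kept, with Runx1 at −0.84 (−0.90 to −0.78) and Runx2 1.99-fold lower in pTh17 (1.48 to 2.75). Runx3 stood at 0.58 (0.47 to 0.69), and Atf3, a stress factor gene, had 61 counts in pTh17 and 11 counts in npTh17, a log2 ratio of 2.48 (1.64 to 3.66). The 20 of 22 coactivator and corepressor genes kept had a median of −0.07 and a narrow spread, between −0.35 for Ncor1 (−0.39 to −0.31) and 0.16 for the deacetylase gene Hdac3 (0.08 to 0.24). Hdac4 stood beside Ncor1, at −0.35 (−0.44 to −0.25).

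Of 20 genes on the TGF-β target list, none of them members, 14 were kept, with a median of −0.31. Tgfbr1, Tgif1 and Junb among them are on other lists here too. Intervals lay below 1 for 9 and above 1 for 4, against 34.0% and 33.0% of all genes kept. Past 2-fold, 3 were lower and 1 higher in pTh17, against 1.95% and 2.25% of all genes kept. The 3 at least 2-fold lower in pTh17 were the integrin gene Itgae, which was 2.82-fold lower (1.79 to 4.85), the regulatory T cell factor gene Foxp3 at a log2 ratio of −1.24 (−1.34 to −1.15), and the chemokine receptor gene Ccr8, picked after its value was seen, with 75.3 CPM in pTh17 and 151 CPM in npTh17 (−1.07 to −0.93). Cish, a SOCS family gene on this list, was at least 2-fold higher in pTh17, at 1.10 (1.02 to 1.19). Whether Cish responds to TGF-β in these cells was not tested. The BMP target list held 11 genes, of which 4 were kept, with a median of 0.77. All 4 had an interval above 1, against 33.0% of all genes kept. Id1, which encodes an inhibitor of helix-loop-helix factors, had 198 counts in pTh17 and 92 counts in npTh17 and was 2.31-fold higher in pTh17 (1.81 to 3.01). Its relative Id3 had 579 counts in pTh17 and 327 counts in npTh17, a log2 ratio of 0.93 (0.74 to 1.14). Id2 stood at 0.38 (0.29 to 0.47) by counts but at −0.04 by FPKM, and the pseudoreceptor gene Bambi at 0.61 (0.06 to 1.19), and both are on the TGF-β target list too. Of the 7 BMP target genes under 1 CPM, 5 had no count in either library and the other 2 were lower in pTh17. These were Smad6, given above, and Hey1, a transcriptional repressor gene picked after its value was seen, with 8 counts in pTh17 and 32 counts in npTh17, a log2 ratio of −1.77 (−3.22 to −0.74).

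**Figure D5:**
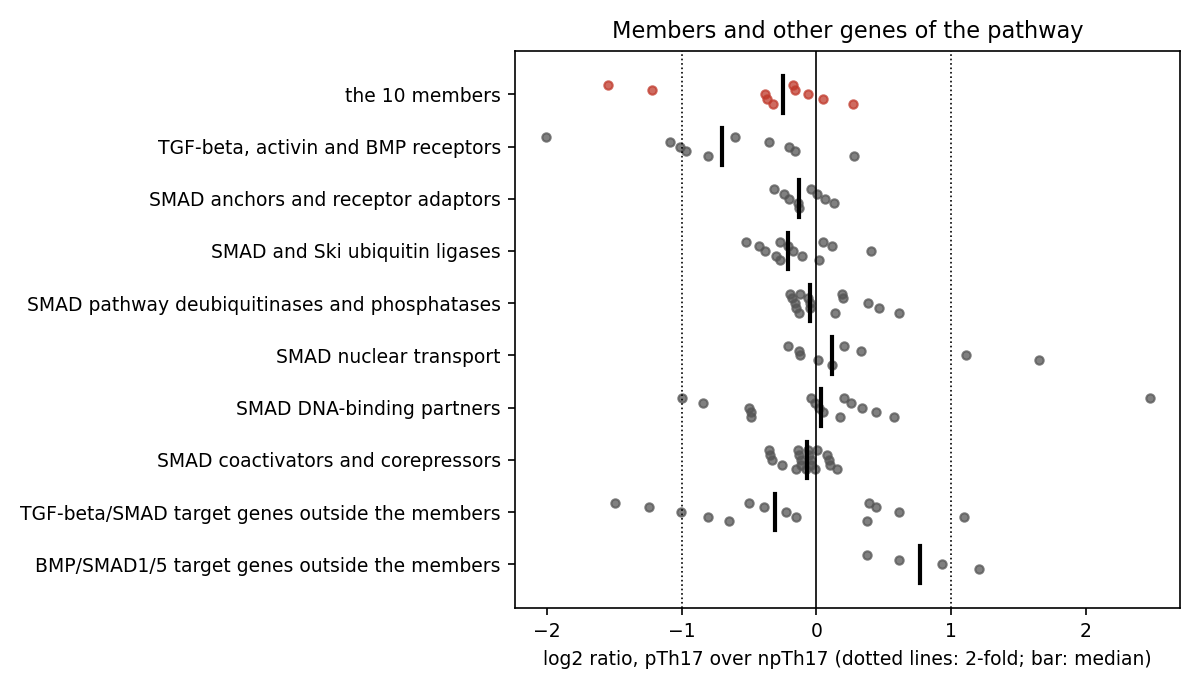
The log2 ratio of pTh17 over npTh17 (horizontal axis) of each gene kept, for the 10 members and for 9 lists of other pathway genes, with a bar at each median. The receptor list has the lowest median, at −0.70, and the BMP target list the highest, at 0.77, against −0.25 for the members.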

How the data were processed

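The labels' protocols describe oligo(dT) capture of mRNA, random fragmentation, random-hexamer cDNA and PCR, with no molecular identifiers. The authors deposited whole-number counts per gene and FPKM per gene, with a column for each library, per the file headers. Per the submitters' processing notes, reads were placed on mm10. Which aligner, counter and annotation were used is not given in the sources used here. Positions are from GENCODE release M21. Of 23702 rows, 1646 numbered features (2.50% of counts in pTh17 and 2.90% in npTh17) and 20 blank or text rows were left out.

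Counts were scaled to CPM with TMM factors of edgeR 4.0.16. Log2 ratios carry a prior count of 1, and intervals are exact Clopper-Pearson intervals of the share of counts in pTh17. Floors for a count of 0 are 3 counts in 1 library. Counts of 2 were 3.42 times as frequent as counts of 1 among named genes in pTh17 and 4.37 times in npTh17, so a fragment may add more than 1 and intervals may be too narrow. The calculation was tested on simulated data. Besides the members, the text names up to 2 highest and 2 lowest genes of each list whose interval leaves out 1. Some others are named where the text says that their values were seen first. Members and lists were chosen with earlier results of these data known. Alternatives were other scalings (DESeq2 1.42.0 size factors among them), prior counts, filters, folds, FPKM, and removal of a length trend.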

Additional observations from a re-analysis of the deposited data

How the results depend on the processing

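Under 7 alternatives of scaling, prior count, unit and length trend, every member kept its side of a ratio of 1, and Spsb1 and Ldlrad4 stayed past 2-fold, with log2 ratios between −1.55 and −1.38 for Spsb1 and between −1.22 and −1.02 for Ldlrad4, each nearest 0 by FPKM with a pseudocount of 1. These alternatives reuse the same 2 libraries, and for Smad1 and Smad3, whose intervals held 1, the side stays within counting error. Smad2 was −0.45 by FPKM with a pseudocount of 0.1 and −0.43 with 1, outside its counting interval. With counts halved before the intervals were computed, 7 members still had an interval below 1 and 1 above, but the intervals of Smad1 and Smad5 came to overlap. The counts of all genes past 2-fold, 207 lower and 238 higher in pTh17, depended on the settings. They were 1136 and 1192 with no filter on low counts, 101 and 96 at a mean of 5 CPM, 66 and 95 by FPKM with a pseudocount of 1, and 610 and 763 at 1.5-fold. By CPM, which is not per length, Smad2 and Smad3 made up 74.4% of receptor SMADs in pTh17 and 76.9% in npTh17, and with 1 length per gene in both libraries 81.6% in npTh17. Of 81 results on the pathway lists under other settings, 5 moved. Among these, no gene on the transport list passed 2-fold by FPKM with a pseudocount of 0.1. With no filter the BMP target list had a median of 0 and 2 genes past 2-fold lower in pTh17, Smad6 and Hey1, beside 1 higher. No paired analysis was possible because each condition has 1 library.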
